A study of Pinus pinaster with 6 samples.

Results

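Transcripts of ethylene response factors (ERFs) were followed in maritime pine (Pinus pinaster) roots after ammonium supply. They were the RAP2-12-like forms pp_58625 and pp_58626, the ethylene responsive element binding protein forms pp_96228 and pp_96234, and the ethylene responsive factor 1 transcript pp_86737, in all 5 of the 46658 transcripts in the deposited table. They were taken by ID and had been chosen by their CPM in the control and ammonium libraries, which was lower with ammonium. Their levels in this comparison and their correlations are therefore given as a description, without p-values, and the counts of calls printed for them support nothing.

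The roots came from 1-month-old seedlings of Spanish seed grown in vermiculite. All had received distilled water only until then. Controls were given 80 mL of water, and for the ammonium group NH4Cl at 3 mM was dissolved in the same volume. Roots of both groups were frozen 24 h later. Each group had 3 libraries, here C1, C2 and C3 for water and N1, N2 and N3 for ammonium, and the labels state that the experiment was repeated independently. How many seedlings were pooled in a library is not given in the sources used here. Direct RNA sequencing (DRS) reads native poly(A) RNA in a nanopore, so that 1 read comes from 1 RNA molecule. The deposited unit was CPM, read counts relative to the size of the library, with no correction for transcript length.

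ERFs are plant transcription factors with a DNA-binding AP2/ERF domain, and several of them act downstream of the gaseous hormone ethylene, which is made from methionine through S-adenosylmethionine (SAM) and 1-aminocyclopropane-1-carboxylate (ACC). In Arabidopsis, the group VII ERFs (RAP2.12, RAP2.2, RAP2.3 and the HRE factors) carry a cysteine at the N-terminus that plant cysteine oxidases oxidise in air, which marks the protein for degradation. When oxygen is low these factors persist and activate genes of fermentation, such as alcohol dehydrogenase, pyruvate decarboxylase and sucrose synthase. Their activity is thus largely set at the level of the protein, which DRS does not measure.

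The annotation did not place the 5 transcripts in 5 separate genes. The transcripts pp_58625 and pp_58626 were both annotated as RAP2-12-like, with Arabidopsis RAP2.12 (AT1G53910) as their best match, and both matched unigene38760 of an earlier pine assembly. The transcripts pp_96228 and pp_96234 were both annotated as ethylene responsive element binding protein, matched unigene126956 and carried no Arabidopsis match. All 4 matched the same isotig of an earlier assembly, isotig29632. The transcript pp_86737, annotated as ethylene responsive factor 1, matched unigene195356 and isotig57887. The 5 transcripts thus matched 3 unigenes and 2 isotigs, and reads of near-identical forms may have been split or shared between them, so they are not treated as 5 independent measurements. Sharing an isotig does not establish that transcripts come from the same gene. Their sequences were not used here.

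The libraries held 1270378 (C1) to 5416076 (N3) recovered reads, so that 1 read was worth 0.178 CPM in N3 and 0.767 CPM in C1. C1, the shallowest library, was the highest of the 6 for 23.9% of all transcripts, and the first principal component set it apart. The median log2 fold change of all transcripts was 0.0043. Of 16 listed transcripts of green tissue, 9 were measured, at a summed 581 to 773 CPM in the control libraries and 480 to 648 CPM in the ammonium libraries, and none was at 0 in every library. A ferredoxin-NADP reductase transcript taken as a root marker, pp_213313, stood at 23.3 to 29.9 CPM over the 6 libraries. The part of these levels in the results below was not tested.

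The RAP2-12-like transcripts were present at a few CPM. The transcript pp_58625 stood at 7.67 CPM in C1, 7.98 in C2 and 13.0 in C3, and 2.92, 3.41 and 3.57 CPM in N1, N2 and N3 respectively. The second form, pp_58626, stood at 11.5, 11.0 and 20.5 CPM in C1, C2 and C3, and at 5.84, 4.48 and 6.06 CPM in N1, N2 and N3. For both forms every control library lay above every ammonium library, and C3 was the highest. The mean of pp_58625 was 9.56 ± 3.01 CPM (SD, n = 3) with water and 3.30 ± 0.336 CPM (SD, n = 3) with ammonium, 2.90-fold lower. That of pp_58626 was 14.4 ± 5.35 CPM with water and 5.46 ± 0.858 CPM with ammonium, 2.63-fold lower. On the scale of log2(CPM + 1), the differences of ammonium from water were -1.26 (SE 0.244) for pp_58625 and -1.21 (SE 0.239) for pp_58626. Because of the pseudocount of 1 CPM this scale understates the change of low transcripts. Roots are a mixture of tissues, and fewer cells that hold a transcript cannot be told apart from less of it per cell.

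The ethylene responsive element binding protein transcripts had the same order of libraries in outline. The transcript pp_96228 stood at 7.67, 8.18 and 13.9 CPM in C1, C2 and C3, and at 3.90, 4.90 and 4.81 CPM in N1, N2 and N3. The transcript pp_96234 stood at 17.6, 20.0 and 33.8 CPM in C1, C2 and C3, and at 9.09, 8.53 and 11.8 CPM in N1, N2 and N3. Again the groups did not overlap and C3 was the highest library. The mean of pp_96228 was 9.92 ± 3.47 CPM with water and 4.54 ± 0.558 CPM with ammonium, 2.19-fold lower, and its log2 difference was -0.94 (SE 0.243). The mean of pp_96234 was 23.8 ± 8.71 CPM with water and 9.80 ± 1.73 CPM with ammonium, 2.43-fold lower, and its log2 difference was -1.16 (SE 0.222). The lowest control library exceeded the highest ammonium library 1.56-fold for pp_96228 and 1.50-fold for pp_96234.

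The ethylene responsive factor 1 transcript was close to the limit of detection. It had 3 reads in C1, 5 in C2 and 14 in C3, and no read in N1 and N2 and 4 reads in N3. In CPM these were 2.30, 1.02 and 3.09 with water and 0, 0 and 0.713 with ammonium. A count of 0 reads allows up to 3 reads, or 0.974 CPM in N1 and 0.640 CPM in N2. The lowest control, C2, was thus close to what N1 could have held unseen. With reads pooled per group, 22 against 4, the level with ammonium was 0.146 times that with water. These reads are the ones that chose the transcript, and 14 of the 22 came from C3, so the value is a description only. The transcript reached 2 CPM in C1 and C3 only, so it met the study's filter of 2 CPM in 2 samples through control libraries alone. The log2 difference of -1.33 (SE 0.418) on the log2(CPM + 1) scale was -2.50 with a pseudocount of 0.25 CPM and -0.52 with 4 CPM.

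**Figure D1:**
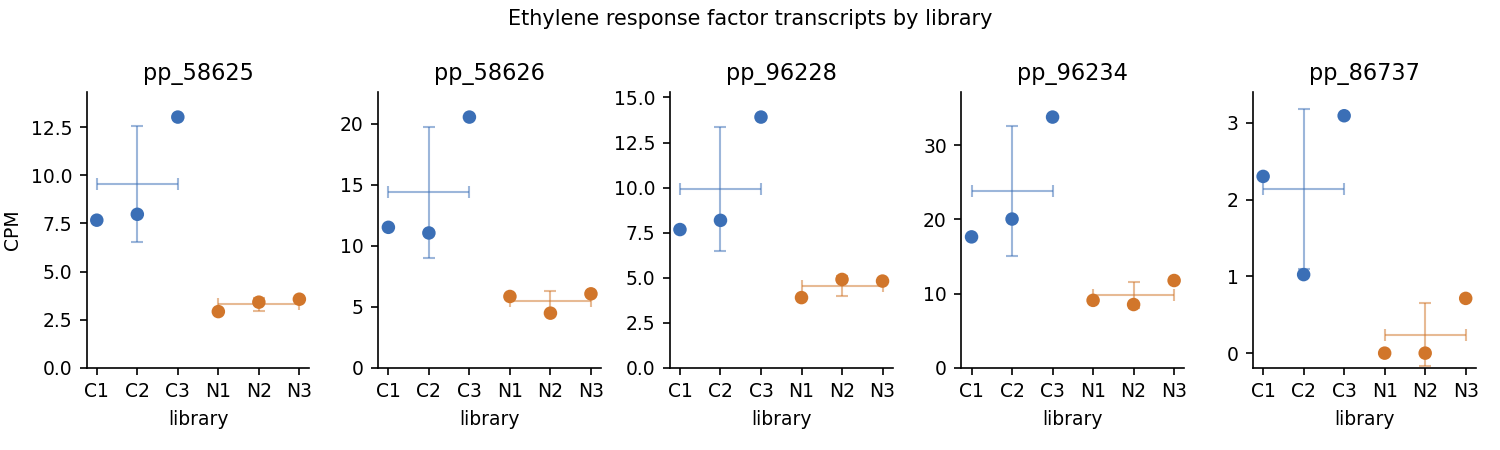
CPM of each of the 5 ethylene response factor transcripts (panels, each with its own vertical axis) in the 3 control libraries (C1 to C3, blue) and the 3 ammonium libraries (N1 to N3, orange). Points are libraries, the horizontal line is the group mean and the vertical bar the SD. In each panel all control points lie above all ammonium points and C3 is the highest, for example 33.8 CPM for pp_96234.

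The spread between the control libraries was wide, and C3 was the highest in every case. It lay apart for the 4 transcripts of isotig29632. For pp_86737, C1 (2.30 CPM) lay nearer to C3 (3.09 CPM) than to C2 (1.02 CPM). The coefficient of variation of the 4 transcripts of isotig29632 was 31.5% to 37.3% with water and 10.2% to 17.7% with ammonium. C3 stood 1.67 to 1.82 times above the mean of C1 and C2 for these 4, and 1.86 times above it for pp_86737. Over all transcripts C3 was the highest of the 6 libraries for 17.7%, and the highest of the control libraries for 33.8%. It was the highest for 5 of these 5, but they had been chosen as higher with water, so a control library had to be the highest. The 4 of isotig29632 may also share reads and are not independent cases. Without C3 the log2 difference was -1.04 for pp_58625, -0.93 for pp_58626, -0.69 for pp_96228, -0.89 for pp_96234 and -1.11 for pp_86737. Each of these was the smallest difference that leaving out any single library gave. C1 and C2 too lay above every ammonium library for each transcript.

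The number of the 5 that passed a test depended on the test and says nothing further about them, since the same comparison had chosen them. Limma with Benjamini-Hochberg adjustment called 0 of the 5 at an adjusted p under 0.05, against 0.03% of all transcripts called lower, and all 5 had an unadjusted p under 0.05, as did 4.58% of all transcripts on the lower side. The exact test of edgeR, run on reads recovered from the CPM, called 5 of 5, against 0.568% of all transcripts called lower. The quasi-likelihood test of edgeR called 3, against 0.182%. DESeq2 called 3, against 0.213% of the 26757 transcripts with an adjusted p. It gave no adjusted p to some low transcripts, among them pp_57658 with 116 reads. With 26 reads, pp_86737 may therefore not have been judged by DESeq2. Groups that did not overlap, with ammonium lower, were found for 5 of 5 and for 6.94% of all transcripts.

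The mix of forms was compared between groups, as shares of the same CPM values that chose the transcripts. Every form had to be lower with ammonium to be chosen, so the shares are not independent of that choice and are a description. The share of pp_58625 in the sum of the RAP2-12-like forms was 40.0% in C1, 41.9% in C2 and 38.8% in C3, and 33.3%, 43.2% and 37.0% in N1, N2 and N3. The ammonium libraries thus lay on both sides of the control libraries, and the difference of -2.38 percentage points gave p = 0.5 (two-sided exact permutation test, 3 against 3 libraries, of which the smallest possible p is 0.1). The share of pp_96228 in the sum with pp_96234 was 29.5% ± 0.714 with water and 31.8% ± 4.07 with ammonium (SD, n = 3), a difference of 2.36 points (p = 0.6, same exact test). The RAP2-12-like forms made up 43.1%, 40.3% and 41.3% of the reads of the 4 transcripts of isotig29632 in C1, C2 and C3, and 40.3%, 37.0% and 36.7% in N1, N2 and N3. N1 and C2 met at 40.3%, and the difference of -3.54 points gave p = 0.2 (exact test). None of the 3 shares could have passed a threshold of 0.05 with 3 libraries a group, so the p values cannot decide whether the mix shifted. Adjusted over the 3 shares, each p was 0.6.

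With reads pooled per group, the share of pp_58625 was 108 of 270 reads with water, 40.0% (95% Clopper-Pearson interval 34.1% to 46.1%), and 45 of 118 reads with ammonium, 38.1% (29.4% to 47.5%). For pp_96228 it was 113 of 387 reads, 29.2% (24.7% to 34.0%), and 62 of 196 reads, 31.6% (25.2% to 38.6%). For the RAP2-12-like forms it was 270 of 657 reads, 41.1% (37.3% to 45.0%), and 118 of 314 reads, 37.6% (32.2% to 43.2%). The intervals of water and ammonium overlapped for each share, and they cover counting error only, not the spread between libraries or reads shared between forms.

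**Figure D2:**
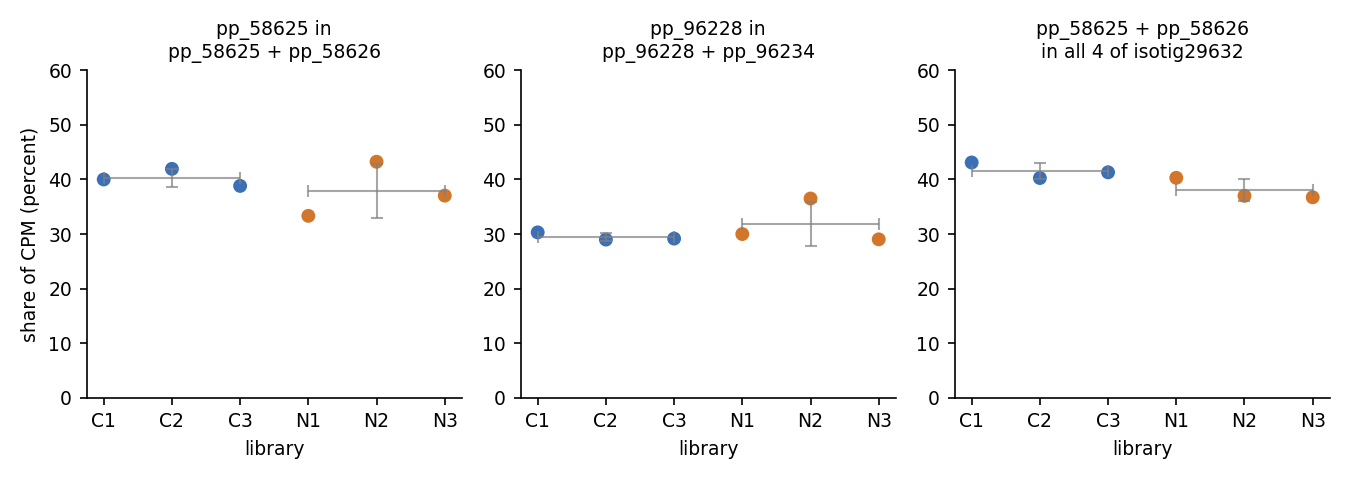
Share of CPM, in percent, of pp_58625 among the RAP2-12-like forms (left), of pp_96228 among the ethylene responsive element binding protein forms (middle) and of the RAP2-12-like forms among the 4 transcripts of isotig29632 (right), by library. Points are libraries (blue water, orange ammonium), horizontal lines group means and vertical bars SD. The ammonium means, 37.9%, 31.8% and 38.0%, differ from the control means by less than 4 percentage points.

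The 4 transcripts of isotig29632 moved together across the 6 libraries. Pearson's r of log2(CPM + 1) was 0.96 to 0.99 over their 6 pairs, and Spearman's rho was 0.77 to 0.94. After the group means were subtracted, r was 0.80 to 0.99, and without C3 it was 0.89 to 0.99. The transcript pp_86737 had r of 0.89 to 0.93 with the 4, and 0.57 to 0.69 after the group means were subtracted. With pp_96235, an abundant transcript that matches the group VII factor RAP2.2, r of pp_86737 was 0.96, and 0.96 again after the group means were subtracted. The libraries of each pair are the same, near-identical forms may share reads, and the transcripts had been chosen for being lower with ammonium, so that these values describe the 6 libraries and no p was computed.

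Of the transcripts known to match the same isotig or unigene, 3 lay outside the 5. These matches were read from annotation held in part and ordered by p in this comparison, which favours small p. All 3 had lower values and an unadjusted limma p under 0.05, as did 4.58% of all transcripts. For several neighbours by ID, such as pp_58621 and pp_96232, no unigene or isotig was held, so other forms may be missing here. The transcript pp_58631 also matched isotig29632 but was annotated as an E3 ubiquitin-protein ligase, a class of enzyme that attaches ubiquitin to other proteins. It stood at 15.3, 17.4 and 27.4 CPM in C1, C2 and C3, and at 7.47, 8.74 and 10.9 CPM in N1, N2 and N3. It fell in edgeR's exact test (log2 fold change -1.18, adjusted p = 0.0012) but did not pass limma (log2 difference -1.04, SE 0.217, adjusted p = 0.13). Without C3 the exact test gave an adjusted p of 0.060, and it was under 0.05 when any other library was left out. The 4 ERF transcripts of the isotig summed to 2.90, 2.72 and 2.97 times the CPM of pp_58631 in C1, C2 and C3, and to 2.91, 2.44 and 2.41 times in N1, N2 and N3. Pearson's r of pp_58631 with each of the 4 was 0.96 to 0.99.

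Its neighbour pp_58630, annotated as an E3 ubiquitin-protein ligase too but matching another isotig (isotig28882), stood at 15.3, 15.8 and 23.4 CPM with water and 9.42, 11.1 and 10.9 CPM with ammonium. It fell in edgeR's exact test (adjusted p = 0.037, above 0.05 without any one of C3, N1, N2 and N3) and had an adjusted p of 0.26 in limma (log2 difference -0.72, SE 0.190). Its r with pp_96228 was 0.9998, higher than that of pp_96228 with any other ERF transcript named here. Whether the ERF forms and the E3 ligase forms of adjacent IDs share sequence or reads was not tested.

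The second, pp_213404, matched unigene126956 and isotig29632, as pp_96228 and pp_96234 do, and carried no name. It stood at 5.37, 4.91 and 6.18 CPM with water and at 2.92, 1.92 and 2.85 CPM with ammonium, so that its groups did not overlap, and C3 exceeded the mean of C1 and C2 only 1.20-fold. It passed neither limma (log2 difference -0.87, SE 0.256, adjusted p = 0.33) nor edgeR's exact test (adjusted p = 0.10). The third, pp_228863, matched the unigene and isotig of pp_86737. It had 4, 14 and 41 reads in C1, C2 and C3 and 1, 5 and 12 reads in N1, N2 and N3, which were 3.07, 2.86 and 9.05 CPM with water and 0.325, 1.07 and 2.14 CPM with ammonium. It fell in edgeR's exact test (log2 fold change -2.01, adjusted p = 0.027), which gave 0.60 without C3, and also lost the call without N1 or N2. Limma gave an adjusted p of 0.33 (log2 difference -1.40, SE 0.412). Of the ammonium libraries only N3 reached 2 CPM, so pp_228863 met the study's filter of 2 CPM in 2 samples only with control libraries.

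Other transcripts with a group VII ERF of Arabidopsis as their best match numbered 6, and none passed limma or edgeR's exact test, although all 6 had lower values and an unadjusted limma p under 0.05, as did 4.58% of all transcripts. These matches were read from an annotation table held in part and ordered by p in this comparison, which favours small p. The forms pp_96229, pp_96230, pp_96233 and pp_96235 shared unigene2530 and matched RAP2.2 (AT3G14230) or, for pp_96230, RAP2.3 (AT3G16770). Their CPM agreed within 1.07-fold in each library, so they are best read as 1 measurement. The most abundant, pp_96235, stood at 236, 195 and 280 CPM in C1, C2 and C3, and at 173, 173 and 202 CPM in N1, N2 and N3. N3 lay above C2, and the log2 difference was -0.36 (SE 0.128, limma adjusted p = 0.45, edgeR exact adjusted p = 0.39). Without C3 its log2 difference was -0.23. The levels of the other 3 gave log2 differences of -0.37, with adjusted p of 0.43 to 0.44 in limma.

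The remaining pair of group VII matches was low. The transcript pp_58624, matching HRE1 (AT1G72360), stood at 9.97, 5.52 and 13.7 CPM with water and 5.20, 5.54 and 5.17 CPM with ammonium, so that C2 lay below N2. Its log2 difference was -0.69 (SE 0.266, limma adjusted p = 0.49, edgeR exact adjusted p = 0.27). The transcript pp_225402, matching RAP2.2, stood at 6.90, 2.25 and 9.50 CPM with water and 2.27, 2.77 and 2.85 CPM with ammonium, and C2 was the lowest of all 6. Its log2 difference was -0.83 (SE 0.361, limma adjusted p = 0.55, edgeR exact adjusted p = 0.30). Both passed the exact test once C2 was left out (adjusted p = 0.0052 for pp_58624 and 0.00067 for pp_225402), and neither did without any other library. Without C3 the log2 differences were -0.43 for pp_58624 and -0.48 for pp_225402. For the ERF transcripts of isotig29632, C2 stood close to C1 instead.

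**Figure D3:**
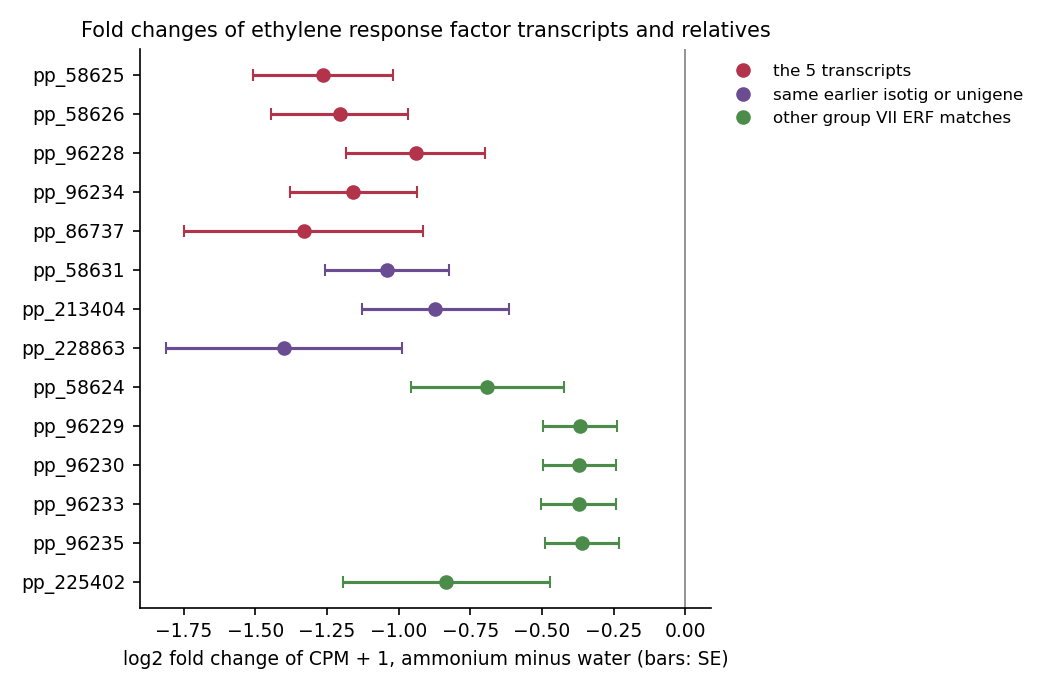
Log2 fold change on the log2(CPM + 1) scale, ammonium minus water, with its standard error (horizontal bars, 3 libraries a group). Red marks the 5 ethylene response factor transcripts. Purple marks the 3 others known to match the same isotig or unigene, and green the 6 other group VII ERF matches. The red values run from -1.33 to -0.94 and were used to choose the transcripts. The 4 abundant forms matching RAP2.2 or RAP2.3 lie between -0.37 and -0.36.

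Relative to the abundant form in the same library, the 5 transcripts were also lower with ammonium. The sum of the 4 transcripts of isotig29632 was 18.9%, 24.3% and 29.1% of the CPM of pp_96235 in C1, C2 and C3, and 12.5%, 12.4% and 13.0% in N1, N2 and N3. The 3 ammonium libraries lay close together and the controls were spread, with C1 the nearest to the ammonium libraries. The transcript pp_86737 was 0.977%, 0.526% and 1.11% of pp_96235 in the controls and 0%, 0% and 0.353% in the ammonium libraries. These ratios use no correction for length and share the values that chose the transcripts, so they were not tested.

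**Figure D4:**
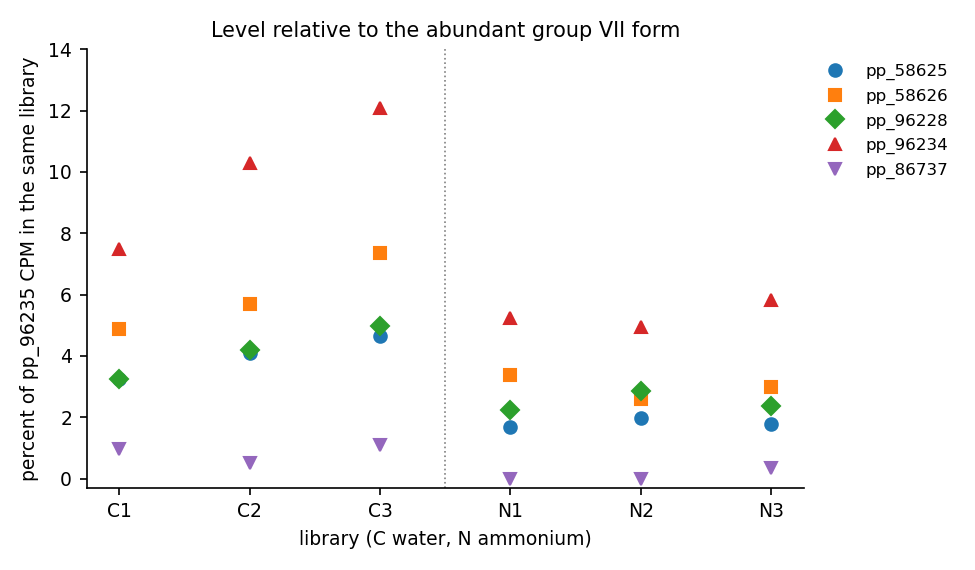
CPM of each of the 5 transcripts as a percent of the CPM of pp_96235, the abundant group VII form, in the same library (C water, N ammonium). For pp_96234 the controls lie at 7.49% to 12.1% and the ammonium libraries at 4.94% to 5.83%.

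The patterns most like those of the 5 over the 6 libraries were looked for among 17831 transcripts with a mean of at least 10 CPM. For the summed CPM of the 4 transcripts of isotig29632 (44.5, 47.3 and 81.3 with water, 21.8, 21.3 and 26.2 with ammonium), the closest were pp_25113, without a name (r = 0.998), pp_179738, annotated as a pectinesterase but matching a pectin methylesterase inhibitor family protein of Arabidopsis (r = 0.993), pp_85215, without a name (r = 0.992), pp_105044, which matches a ribosomal protein S8e family protein of Arabidopsis (r = 0.990), and pp_58631 (r = 0.989). The size of the change differed among them. The log2 difference was -1.19 for pp_85215 but -0.36 for pp_105044. For pp_86737 the closest were pp_234740, which matches a cysteine-rich receptor-like kinase (r = 0.988), and pp_179974, which matches a hypothetical protein (r = 0.986). Next came pp_217272 (r = 0.985), for which no annotation was held. With 6 libraries and this many candidates, such values of r are a ranking and no more.

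**Figure D5:**
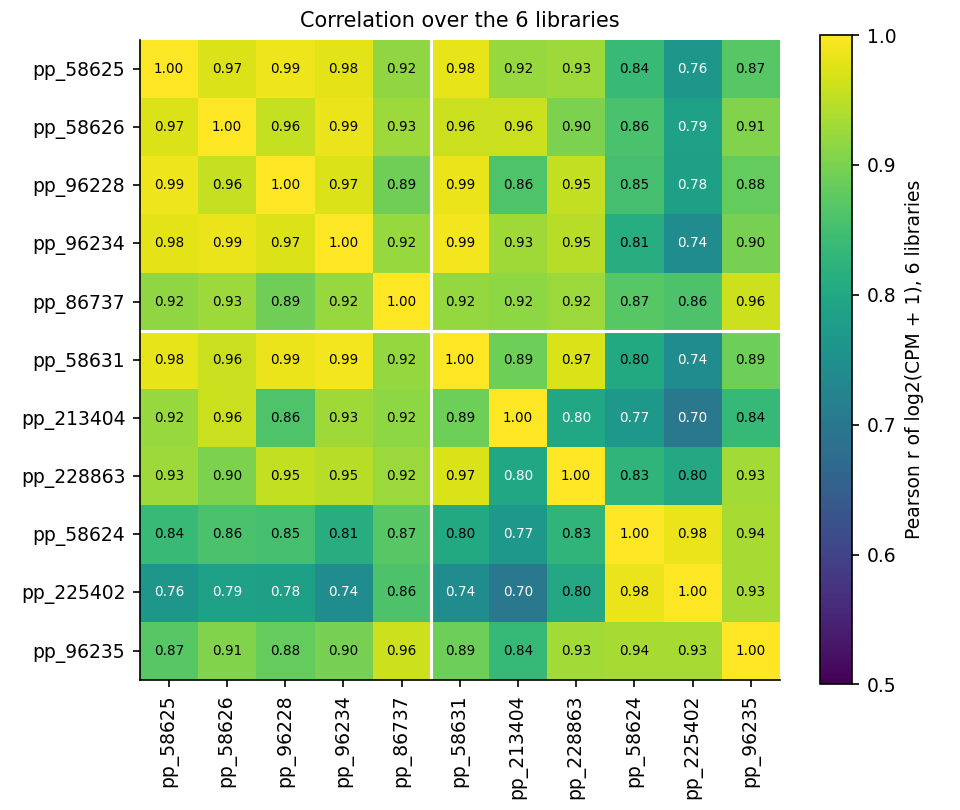
Pearson's r of log2(CPM + 1) over the 6 libraries. The first rows and columns, set off by white lines, are the 5 ethylene response factor transcripts. The rest are the 3 others known to match the same isotig or unigene and 3 of the group VII matches. The color scale runs from 0.5 to 1. The 4 transcripts of isotig29632 have r of 0.96 to 0.99 among themselves, and pp_225402 has 0.74 to 0.79 with them.

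By ID, 26 further transcripts lay within 6 of one of the 5, and adjacent IDs often hold related forms. Limma called none of the 26, of which 8 had an unadjusted p under 0.05, and edgeR's exact test called 2, pp_58630 and pp_58631. Over all 46658 transcripts, 4047 had an unadjusted p under 0.05 in limma and the exact test called 0.81%. Their log2 differences ran from -1.04 to 0.95 with a median of -0.14. With a mean of at least 10 CPM there were 13, among them pp_96232 (79.2 to 101 CPM with water, 72.4 to 93.8 with ammonium, log2 difference -0.12), pp_86741, an annexin (log2 difference -0.15), pp_96240 (-0.06), pp_96238 (-0.05), pp_96227 (-0.13), pp_96222 (0.28) and pp_86740 (0.08), and none of these 7 passed either test. The remainder of the 13 are the forms described above.

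Genes that are placed before or after ERFs in Arabidopsis were described by lists. Whether they act so for these pine transcripts was not tested, and only pp_58625 and pp_58626 had a group VII factor as best match. Names were read from the study's annotation tables, which were held only in part, and the main one is ordered by p in this comparison. The lists therefore favour transcripts that differ here, and their counts are not independent evidence of a direction. Over all transcripts limma called 0.0386% and edgeR's exact test 0.81% in either direction. Of 5 other AP2-domain factors, limma called none, and all 5 had lower values at an unadjusted p under 0.05, as did 4.58% of all transcripts. EdgeR's exact test called 1 as lower, against 0.568% of all transcripts. This was pp_151807, which matches ERF2 (AT5G47220). It had 5.96 CPM with water and 1.60 with ammonium (log2 difference -1.46, SE 0.421, limma adjusted p = 0.32, edgeR exact adjusted p = 0.042, which rose to 0.65 without C3 and was also above 0.05 without N1 or N2). The transcript pp_57658, which matches ERF1 (AT4G17500), had 6.29 CPM with water and 3.05 with ammonium (limma adjusted p = 0.39, edgeR exact adjusted p = 0.082). The transcript pp_252722, a RAV protein with AP2 and B3 domains, had 2.31 and 0.477 CPM (limma adjusted p = 0.38, edgeR exact adjusted p = 0.12). It reached 2 CPM in C1 and C3 only, and pp_151807 reached 2 CPM with ammonium in N3 only. Both thus met the study's filter of 2 CPM in 2 samples only with control libraries, which favours lower values.

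Neither transcript that matches plant cysteine oxidase 3 (AT1G18490), pp_78902 or pp_78905, passed either test (limma adjusted p = 0.54 and 0.55, edgeR exact adjusted p = 0.14 and 0.16). The first stood at 3.84, 4.30 and 17.4 CPM in C1, C2 and C3, and at 4.87, 1.92 and 2.50 CPM in N1, N2 and N3, and the second differed from it in C3 only. N1 lay above C1 and C2, and without C3 the log2 difference of pp_78902 was -0.37 instead of -0.99. Of 9 measured ethylene synthesis transcripts (SAM synthetases, which make the methyl donor from which ACC is formed, and ACC oxidases), limma and edgeR's exact test called none. Limma gave 5 an unadjusted p under 0.05, all with lower values, against 4.58% of all transcripts on the lower side. The median log2 difference of the 9 was -0.25, beside 0.0043 for all transcripts. The SAM synthetase pp_92107 stood at 1152 CPM with water and 869 CPM with ammonium (log2 difference -0.41, SE 0.091, -0.24 with quantile normalization, limma adjusted p = 0.16, edgeR exact adjusted p = 0.11). The SAM synthase transcripts pp_203935 and pp_63497 had log2 differences of -0.28 and -0.91 (limma adjusted p = 0.42 for both). The first was -0.07 with quantile normalization, and the second was -0.45 without N1.

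Of 31 transcripts that could be assigned the ethylene-activated signaling term, 20 were measured. Limma called none of the 20, and 11 had an unadjusted p under 0.05, all 11 of them forms of multiprotein bridging factor 1c (MBF1c), a transcriptional coactivator. All 11 had lower values, and 4.58% of all transcripts were lower at that unadjusted p. EdgeR's exact test called 5 of the 11 as lower, against 0.568% of all transcripts. The MBF1c form with the smallest p, pp_219169, had 21.9 CPM with water and 13.0 with ammonium (log2 difference -0.73, SE 0.172, limma adjusted p = 0.20, edgeR exact adjusted p = 0.020, which rose to 0.23 without N2 and was above 0.05 without C2 or C3). The forms pp_219164 and pp_219162 had log2 differences of -0.79 and -0.69. The median log2 difference of the 11 was -0.73 and the range -0.79 to -0.63, which is narrow as the forms are alike and may share reads.

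Among fermentation genes, which group VII ERFs activate in Arabidopsis, 3 of 23 measured transcripts that match alcohol dehydrogenase 1 fell in limma. None was called higher, although 1 had a higher value at an unadjusted p under 0.05, and edgeR's exact test called 6 as lower. Over all transcripts limma called 0.03% as lower, 4.1% were higher at that unadjusted p, and the exact test called 0.568% as lower. The 3 were pp_247837, pp_247833 and pp_247834, which all matched unigene127144 as unigene or isotig and may share reads. The first fell from 59.9 CPM with water to 26.5 CPM with ammonium (log2 difference -1.16, SE 0.136, limma adjusted p = 0.0079), and the others fell by 1.16 and 1.17 on the log2 scale at the same adjusted p. These calls were lost without C2 (limma adjusted p = 0.062) and with moderation without a trend (0.55), while edgeR's exact test called all 3 whichever library was left out. The highest library of pp_247837, pp_247833 and pp_247834 was C2, while C3 was the highest for 15 of the 23, and for 17.7% of all transcripts. The median log2 difference of the 23 was -0.89.

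For pyruvate decarboxylase, which makes acetaldehyde from pyruvate, limma called none of 11, with 5 lower at an unadjusted p under 0.05, against 4.58% of all transcripts. EdgeR's exact test called 4 as lower, against 0.568% of all transcripts. The transcript pp_78343 had 14.9 CPM with water and 1.50 with ammonium (log2 difference -2.41, SE 0.403, limma adjusted p = 0.056, edgeR exact adjusted p = 4.3e-08, under 0.05 whichever library was left out). The transcripts pp_123611 (11.7 and 1.33 CPM) and pp_126347 (3.15 and 0.358 CPM) fell in the exact test too (adjusted p = 7.1e-05 and 0.0045, the latter 0.30 without C3 and also lost without N2 or N3). Neither these nor pp_78343 reached 2 CPM in any ammonium library. They met the study's filter of 2 CPM in 2 samples through control libraries alone, which favours calls of lower. The log2 difference of pp_123611 was -2.03, and -1.24 without C3. C3 was the highest library for 7 of the 11, and for 17.7% of all transcripts. The median log2 difference of the 11 was -0.66.

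For sucrose synthase, which splits sucrose, limma called none of 15. An unadjusted p under 0.05 was found for 3 on the higher side, where 4.1% of all transcripts had one, and for 7 on the lower side, where 4.58% had one. EdgeR's exact test called 2 as lower, against 0.568% of all transcripts. One was pp_144843, with 9.28 CPM with water and 3.92 with ammonium (limma adjusted p = 0.15, edgeR exact adjusted p = 0.0058, lost without C3, N2 or N3). The other, pp_144836, had a log2 difference of -0.53 (edgeR exact adjusted p = 0.044, above 0.05 whichever library was left out), and pp_144835 had -0.58 (limma adjusted p = 0.22, edgeR exact adjusted p = 0.056). The median log2 difference of the 15 was -0.44. A non-symbiotic hemoglobin transcript, pp_135403, of a class induced by low oxygen in Arabidopsis, had a value in the opposite direction, 2.17 CPM with water and 5.42 with ammonium (log2 difference 1.01, SE 0.380, 0.64 without C1, limma adjusted p = 0.47, edgeR exact adjusted p = 0.27).

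Of 2 further transcription factors that the study names, the trihelix factor pp_59947 had 6.45 CPM with water and 2.37 with ammonium (limma adjusted p = 0.20, edgeR exact adjusted p = 0.029, lost without C1, C3, N2 or N3), and the MYB factor pp_202778 had 2.25 and 0.537 CPM (limma adjusted p = 0.51, edgeR exact adjusted p = 0.046, under 0.05 only when C1 was left out). The MYB factor reached 2 CPM in C2 and C3 only. It thus met the study's filter of 2 CPM in 2 samples through control libraries alone, which favours a call of lower. The reference genes of the study's RT-qPCR, pp_238578 (SKP1/ASK1) and pp_199988, had log2 differences of 0.07 (SE 0.093) and 0.11 (SE 0.114), and neither passed a test.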

How the data were processed

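Direct RNA libraries of 3 control and 3 ammonium root samples were analysed. According to the paper and the processing notes, the authors called bases with Guppy, kept reads of quality above 9, aligned them with minimap2 to a root transcriptome and, with edgeR, deposited CPM for transcripts with at least 2 CPM in 2 samples. No source used here gives their versions or the program that counted reads. Within every library, 100% of the values were whole multiples of 1 read (tolerance 1e-06), which gave the recovered reads. The main test was limma 3.58.1 (R 4.3.3) on log2(CPM + 1) with a trend, Benjamini-Hochberg adjusted over 46658 transcripts. On the recovered reads, edgeR 4.0.16 and DESeq2 1.42.0 were run as alternatives. The scripts were tested on simulated data. Shares of forms were compared by exact permutation tests over libraries. The deposited table held no column that could not be assigned to a sample. The 5 transcripts and all lists were chosen with earlier results of these data known. Named transcripts were the 5, those of the same unigene or isotig, group VII ERF matches, neighbours by ID with a mean of at least 10 CPM, the closest patterns, and up to 3 of each other list with the smallest p. Of the green tissue list these were pp_154538, pp_208310 and pp_237809, with log2 differences of 0.41, -0.60 and 0.51 (limma adjusted p = 0.43, 0.46 and 0.49). Of the 9 measured on that list, 7 had log2 differences below 0 and 2 above 0, with a median of -0.08.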

Additional observations from a re-analysis of the deposited data

How the results depend on the processing

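The log2 fold changes of the 5 ethylene response factor transcripts stayed below 0 in every setting, a sign that their choice from these libraries had fixed. That of pp_58625 was -0.87 with a pseudocount of 4 CPM and -1.56 in edgeR's exact test. The number of transcripts that passed depended on the test. Limma called 18 (4 higher and 14 lower). It called 0 with moderation without a trend, with 3658 at an unadjusted p under 0.05, and 0 to 71 when single libraries were left out, namely 0 without C2, where 4726 had an unadjusted p under 0.05, 5 without N2 or N3, 29 without C1 and 71 without N1. EdgeR's quasi-likelihood test called 114, the exact test 378, the likelihood-ratio test 451 and DESeq2 83. Without single libraries, a setting chosen after seeing the data, the exact test called 117 (without N2) to 793 (without N1), with 161 without N3 and 210 without C3. With the replicate number as a block limma called 49, among them 1 of the 5 ethylene response factor transcripts (none without the block). Libraries of the same replicate number had correlations of deviations of -0.0024, 0.0561 and -0.0085. The labels do not say whether a number marks a repeat of the experiment, and these correlations cannot decide it. With libraries paired by replicate number the differences in share kept their size, with p = 0.5 and 1 for the forms and 0.25 for the RAP2-12-like share (paired exact test, smallest possible p 0.25). Without single libraries the difference in the share of pp_58625 ran from -5.07 to -0.11 points, that of pp_96228 from 0.03 to 3.77 and that of the RAP2-12-like forms from -4.69 to -2.77. With pooled reads they were -1.86, 2.43 and -3.52. Of the 5, only pp_58626 and pp_96234 had 10 CPM in 3 libraries. Depth limits pp_86737 most, with 26 reads in all.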
